A study of Mus musculus with 14 samples.

Results

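Genes of the hypoxia response and of glycolysis were followed in lungs of 6-day-old mice that lacked Atxn1l or Atxn1. The set was a list of 32 genes: the oxygen-sensing proteins with the hypoxia-inducible factor (HIF) subunits, HIF target genes, transporters of glucose and lactate, and enzymes and regulators of glycolysis. Of these, 31 had a probe set among the 21212 on the arrays, and Pgam1 was not analysed here. The Affymetrix mouse Gene ST 1.0 array, hybridised with RNA from dissected lung tissue, gave 1 log2 level for each gene. The arrays formed 4 groups, all C57BL/6J at postnatal day 6: 4 Atxn1L -/- mice with 4 wild-type controls, and 3 Atxn1 -/- mice with 3 wild-type controls. Both lines came from crosses between heterozygotes, and the labels name no tissue-specific promoter or Cre driver, no litter and no sex. The labels do not say what the replicate numbers stand for, and p-values measure only the spread between these samples, which may in part be technical. Ataxin-1 and ataxin-1-like are paralogous partners of the repressor Capicua. The authors normalized both sets separately. Changes are therefore differences of mean log2 levels within a set, knockout minus wild type.

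HIF is a dimer of an oxygen-labile alpha subunit, HIF-1alpha (Hif1a) or HIF-2alpha (Epas1), with a stable partner. In the presence of oxygen, prolyl hydroxylases mark the alpha subunit, and the von Hippel-Lindau protein then targets it for degradation. At low oxygen it escapes, binds a short element with the core ACGTG or GCGTG, and switches on genes of glucose uptake, glycolysis, blood vessel growth and mitochondrial turnover. In lung, HIF-2alpha is abundant in endothelium and type 2 cells. Leukocytes such as neutrophils and activated macrophages rely heavily on glycolysis, and red cell precursors shed their mitochondria through Bnip3l. A level in lung tissue sums over many cell types, and fewer cells of a type cannot be told apart from less RNA per cell.

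The tissue carried its lung markers on every array: the surfactant gene Sftpc had log2 levels between 13.87 and 14.42, the club cell gene Scgb1a1 between 13.55 and 14.21, and Ager of type 1 cells between 12.50 and 13.16. The deleted Atxn1l fell by 2.58 on the log2 scale in its own knockout (adjusted p = 1.18e-06, limma). The Atxn1 probe set differed by 0.0098 in the Atxn1 knockout, and it may lie outside the deleted part, so it does not check that genotype. Levels of Xist, which is transcribed in females, were low on 1 of 4 Atxn1l knockouts, 2 of 4 of their wild types, 1 of 3 Atxn1 knockouts and 2 of 3 of theirs. The median log2 level of an array was 8.44 to 8.53 for the Atxn1l arrays, and for those of Atxn1 it was 9.21 to 9.24. In each set 1 array stood apart in neutrophil genes (Ngp, Ltf, S100a8, Cxcr2 and 6 others). Their mean was 10.68 on Atxn1l knockout replicate 1, against 8.20 to 9.26 on the remaining 7, and 11.18 on Atxn1 wild type replicate 3, against 8.99 to 9.54 on the remaining 5. Both also differed in Xist from the rest of their group: Atxn1l knockout replicate 1 was the single knockout with a low level, and Atxn1 wild type replicate 3 the single wild type with a high one. Values without these arrays stand beside the results they move most.

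In lungs without Atxn1l, 26 of the 31 genes lay above their wild types, while no member passed the test over all probe sets. All 12 glycolytic genes and all 3 transporters had a log2 change above 0, with medians of 0.12 and 0.29, and the 5 oxygen-sensing genes had a median of 0.010 and the 11 HIF targets of 0.034. The largest differences were those of the glucose transporter Slc2a3 (0.40), the lactate exporter Slc16a3 (0.29), the vasodilator peptide gene Adm (0.27), the mitophagy receptor Bnip3l (-0.25), hexokinase 2 (Hk2, 0.25) and enolase 1 (Eno1, 0.23). In lungs without Atxn1, 19 of 31 lay above 0, where 47.3% of all probe sets did, with a median of 0.028, and glycolytic genes were divided evenly, 6 above and 6 below.

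limma called 0 of the 31 members in the Atxn1l knockout at an adjusted p under 0.05, where it called 0.0424% of all probe sets. The smallest adjusted p of a member was 0.327, for Bnip3l. At an unadjusted p under 0.05 there were 9 members, 8 higher and 1 lower, which is 29% of the members against 8.5% of all probe sets. The share of members with a change above 0 was 83.9%, against 51.3% of all probe sets, and the median change was 0.070 against 0.0026. For 3 members all knockout arrays lay above all wild types, against 2.76% of probe sets, and for 1 member all lay below, against 2.56%. Taken by direction at the unadjusted p, 4.54% of all probe sets were higher and 3.95% lower. The 9 members were 5 without wild type replicate 2, and between 7 and 12 without any other single array. The share of all probe sets at that p was 6.65% to 9.54% without single arrays. With medians of arrays set equal, 21 members lay above 0, 10 of them glycolytic, and the median was 0.046, where that of all probe sets was -0.021.

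**Figure D1:**
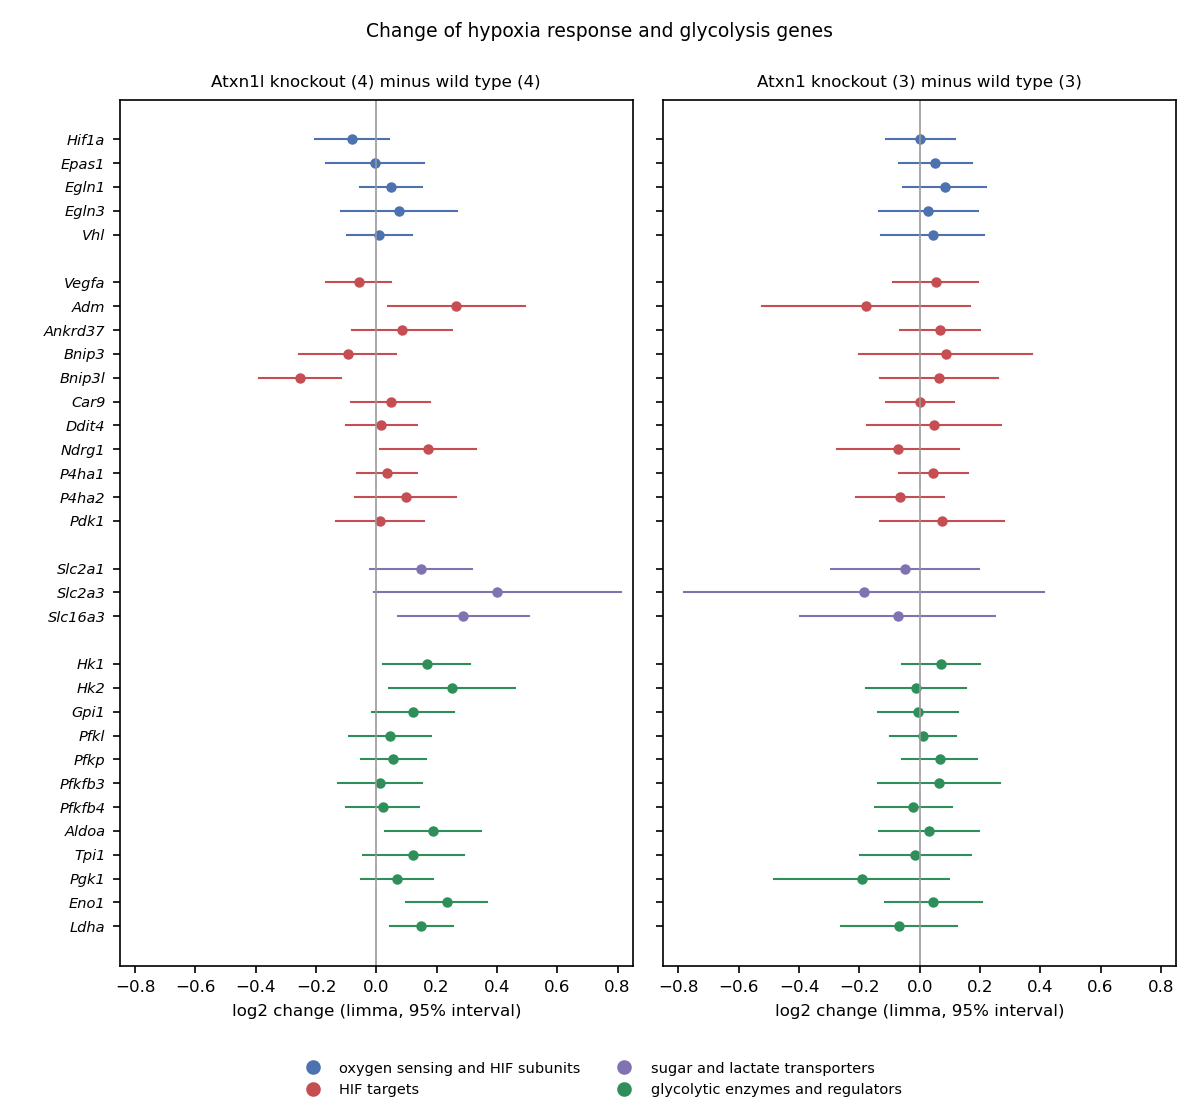
Change of each of the 31 members on the log2 scale, knockout minus wild type, with 95% intervals of the limma fit (bars), for the Atxn1l knockout (left, 4 against 4 arrays) and the Atxn1 knockout (right, 3 against 3), coloured by role. On the left all transporters and glycolytic genes lie above 0 and Bnip3l lies lowest, at -0.25. On the right no interval excludes 0.

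The promoters of several of these genes hold the HIF core. Those of Ldha, Eno1, Hk2, Slc16a3, Pgk1 and Adm are shown, picked by hand among members with values per array. Pgk1 had no unadjusted p under 0.05 in either knockout. Hk1 and Aldoa, which had one in the Atxn1l knockout, are not shown. Each is the 160 bases before a transcription start (RefSeq, GRCm38.p6), 5′ to 3′ on the gene's strand. Capitals mark ACGTG or GCGTG on either strand, which reads CACGT or CACGC on the other strand, and CACGTG holds the core on both strands at once. For Ldha and Eno1, with 2 and 3 listed starts, the start with most matches was taken.
Ldha, chr7:46845644-46845803, plus strand: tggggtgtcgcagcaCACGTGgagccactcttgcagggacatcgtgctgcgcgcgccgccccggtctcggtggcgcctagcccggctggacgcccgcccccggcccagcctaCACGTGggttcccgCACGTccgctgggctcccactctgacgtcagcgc
Eno1, chr4:150237037-150237196, plus strand: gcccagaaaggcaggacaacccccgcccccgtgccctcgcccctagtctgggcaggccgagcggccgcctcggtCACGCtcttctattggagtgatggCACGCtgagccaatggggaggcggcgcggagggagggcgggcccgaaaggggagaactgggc
Hk2, chr6:82774455-82774614, minus strand: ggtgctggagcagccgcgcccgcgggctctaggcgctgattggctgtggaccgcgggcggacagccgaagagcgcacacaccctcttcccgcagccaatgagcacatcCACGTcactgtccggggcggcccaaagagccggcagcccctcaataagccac
Slc16a3, chr11:120948907-120949066, plus strand: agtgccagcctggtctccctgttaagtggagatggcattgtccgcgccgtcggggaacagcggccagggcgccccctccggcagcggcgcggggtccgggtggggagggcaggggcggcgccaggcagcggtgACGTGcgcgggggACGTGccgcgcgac
Pgk1, chrX:106186940-106187099, plus strand: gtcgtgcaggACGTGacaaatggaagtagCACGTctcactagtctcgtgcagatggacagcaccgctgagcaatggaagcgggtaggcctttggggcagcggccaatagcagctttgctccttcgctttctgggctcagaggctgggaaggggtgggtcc
Adm, chr7:110627497-110627656, plus strand: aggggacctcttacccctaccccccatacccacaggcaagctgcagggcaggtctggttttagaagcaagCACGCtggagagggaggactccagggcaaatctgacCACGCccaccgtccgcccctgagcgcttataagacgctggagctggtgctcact
The stretch before Ldha held CACGTG at 145 and again at 48 bases before the start, and CACGT at 34. Before Slc16a3, ACGTG lay at 27 and 14 bases, and before Pgk1 at 150, with CACGT at 131. Eno1 (86 and 62) and Adm (90 and 54) carried CACGC, and Hk2 had CACGT at 52. Over the 250 bases before each start, 29 of 36 windows of members held the core (80.6%), against 46.1% of 19101 windows of genes with a probe set and 38.6% of all 32851 windows in the table. The list was made of HIF pathway and glycolysis genes, so a higher share may come with that choice and tests nothing. Some members, such as Eno1, gave several overlapping windows. Windows of members also held more CpG dinucleotides, which the core contains, with a median of 15 against 11. The table of promoters matched 27 of the 31 members by gene number, and Epas1, Bnip3l, Ndrg1 and Slc2a3 were not matched. No match was found before Vhl, Tpi1 and Gpi1. A match describes the letters and does not show a bound site.

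No oxygen-sensing gene passed the test or had an unadjusted p under 0.05 in either knockout. Hif1a, the inducible alpha subunit, had log2 levels of 11.74, 11.63, 11.62 and 11.69 in the Atxn1l knockouts and 11.65, 11.70, 11.81 and 11.83 in their wild types. These groups overlapped, and the change was -0.080 (SE 0.055, adjusted p = 0.754). Epas1, the HIF-2alpha gene, read 12.76, 12.98, 12.96 and 12.91 against 13.05, 12.77, 12.86 and 12.94. Its change was -0.0044 (SE 0.072, adjusted p = 0.993), with a 95% interval of -0.17 to 0.16. Knockout replicate 1 and wild type replicate 2 were the low arrays, and without knockout replicate 1 the change was 0.044. The prolyl hydroxylases Egln1 (0.049) and Egln3 (0.076) and the ubiquitin ligase subunit Vhl (0.010) lay above 0, while Hif1a and Epas1 lay below. In the Atxn1 set Hif1a stood at 12.36, 12.34 and 12.37 against 12.31, 12.37 and 12.39, a change of 0.0013 (SE 0.048, adjusted p = 0.9999), and Epas1 at 13.31, 13.29 and 13.35 against 13.21, 13.31 and 13.27, a change of 0.052 (SE 0.051, adjusted p = 0.9999). There all 5 genes of this role lay above 0, the most for Egln1. It was 11.05, 10.94 and 10.96 in knockouts and 10.82, 10.94 and 10.93 in wild types, at 0.083 (SE 0.058, adjusted p = 0.9999). Egln1 was the single member whose groups did not overlap there in either direction, against 4.75% of all probe sets, though the nearest values of both groups round to 10.94.

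HIF targets split in direction in the Atxn1l knockout, 8 of 11 above 0 and 3 below. Vegfa, the growth factor of endothelium, had 12.24, 12.29, 12.25 and 12.28 in knockouts and 12.32, 12.42, 12.27 and 12.30 in wild types. The groups overlapped and the change was -0.059 (SE 0.048, adjusted p = 0.800), with a 95% interval of -0.17 to 0.048. Adm, which encodes adrenomedullin, read 8.22, 8.54, 8.17 and 8.23 against 7.83, 7.93, 8.14 and 8.20, a change of 0.27 (SE 0.10, adjusted p = 0.527). Knockout replicate 3 lay below wild type replicate 4. Knockout replicate 2 was the highest array, and without it the change was 0.18. Ndrg1, a stress-induced gene, had 9.28, 9.38, 9.21 and 9.08 in knockouts and 9.19, 9.03, 8.99 and 9.05 in wild types. Replicate 2 was again the highest and replicate 4 lay among the wild types, and the change was 0.17 (SE 0.071, adjusted p = 0.556). The other targets above 0 ranged from 0.012 for the pyruvate dehydrogenase kinase Pdk1 to 0.097 for the collagen prolyl hydroxylase P4ha2. Between them were P4ha1 (0.034), the carbonic anhydrase Car9 (0.048), Ankrd37 (0.087) and the mTOR inhibitor Ddit4 (0.017), none with an unadjusted p under 0.05.

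Bnip3l was the member with the smallest p of the Atxn1l comparison, and the one member lower without overlap. It encodes a receptor that delivers mitochondria to autophagy, as in maturing red cells. Levels were 9.18, 9.35, 9.34 and 9.34 in knockouts and 9.64, 9.53, 9.44 and 9.62 in wild types. All knockouts lay below all wild types, with a 1.19-fold lower level, a log2 change of -0.25 (SE 0.061, adjusted p = 0.327). The change lay between -0.29 and -0.21 without any single array. The related Bnip3 had a change of -0.095, with overlap. Of 7 red cell genes, 4 lay below 0 and 3 above, and their mean was 8.55, 8.40, 8.41 and 8.39 in knockouts against 8.54, 8.40, 8.41 and 8.48 in wild types. Within that list the haem synthesis gene Alas2 had -0.18 and Rhag 0.31. Bpgm, the red cell enzyme that makes 2,3-bisphosphoglycerate from a glycolytic intermediate, had -0.11. None of these passed over all probe sets, and the part of red cells in the Bnip3l value was not tested. In the Atxn1 set Bnip3l read 10.62, 10.57 and 10.63 in knockouts and 10.69, 10.56 and 10.38 in wild types. Wild type replicate 3 was the lowest array for Bnip3l and also had the lowest red cell mean, 9.10, against 9.27 to 9.50 on the others. The change there was 0.064 (SE 0.083, adjusted p = 0.9999), and without that array -0.019, while Bpgm had 0.22.

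All 3 transporters lay higher in the Atxn1l knockouts, and 1 array stood highest for each of them. Slc16a3, the monocarboxylate transporter that exports lactate from glycolytic cells, had 9.23, 8.75, 8.88 and 8.84 in knockouts and 8.53, 8.68, 8.74 and 8.58 in wild types. Every knockout lay above every wild type, with replicate 1 highest and replicate 2 next to the wild types, and the change was 0.29 (SE 0.098, adjusted p = 0.475). Without that array it was 0.19. Slc2a3, the high-affinity glucose transporter GLUT3 of neurons and leukocytes, was picked out after its values were seen. Its levels were 9.60, 8.81, 8.72 and 8.62 against 8.53, 8.69, 8.43 and 8.50. Replicate 1 was again highest, and replicate 4 lay below the highest wild type. The change of 0.40 (SE 0.18, adjusted p = 0.594) was 0.18 without replicate 1. Slc2a1, the widely expressed GLUT1, had 9.96, 9.73, 9.74 and 9.62 against 9.54, 9.53, 9.70 and 9.68, with overlap. Its change was 0.15 (SE 0.075, adjusted p = 0.636), and 0.084 without replicate 1.

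The array with the highest transporter levels was in each set the one with the highest neutrophil genes. The transporter mean was 9.59, 9.10, 9.11 and 9.03 in the Atxn1l knockouts against 8.87, 8.97, 8.95 and 8.92 in their wild types. In the Atxn1 set it was 9.62, 9.71 and 9.75 in knockouts against 9.68, 9.52 and 10.18 in wild types, so that here a wild type, replicate 3, stood highest. Its levels were 9.95 for Slc2a3, 10.07 for Slc16a3 and 10.52 for Slc2a1, each the highest of the set. All 3 transporters had a change below 0 in the Atxn1 knockout, -0.18, -0.073 and -0.049 in that order. Without wild type replicate 3 each was above 0, at 0.13, 0.086 and 0.057. The 10 neutrophil genes all had a change above 0 for Atxn1l (median 0.99, and 0.42 without knockout replicate 1). In the Atxn1 knockout all 10 lay below 0 with a median of -0.37, while without wild type replicate 3 there were 8 above 0 and the median was 0.37. The part of neutrophils in the transporter values was not tested.

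**Figure D2:**
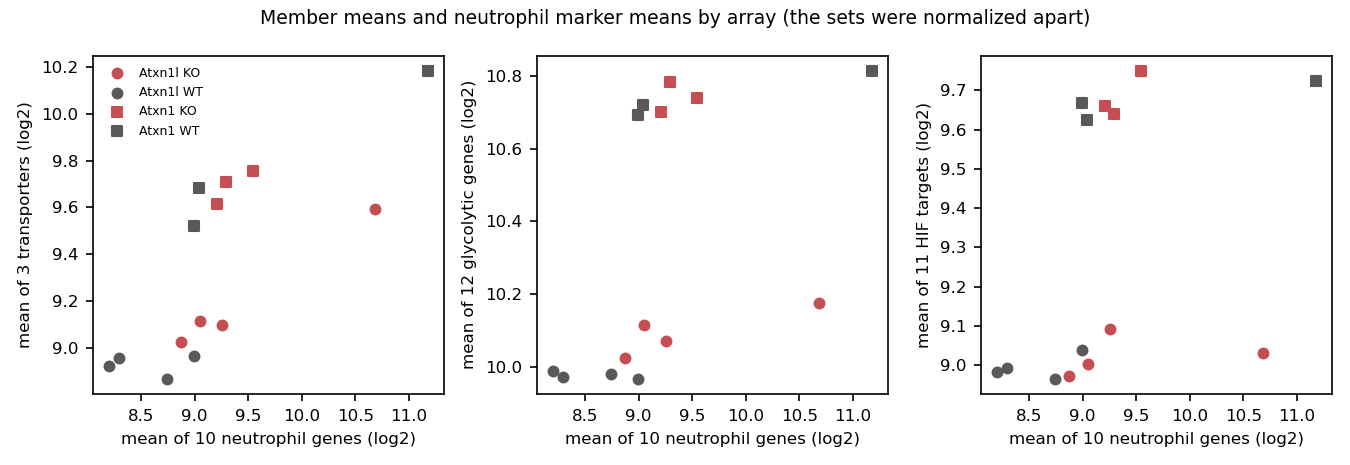
Mean log2 level per array of the 3 transporters (left), the 12 glycolytic genes (middle) and the 11 HIF targets (right) against the mean of 10 neutrophil genes. Circles are the Atxn1l set and squares the Atxn1 set, red for knockouts and grey for wild types, and the sets are offset since they were normalized apart. The arrays at 10.68 and 11.18 on the horizontal axis have the highest transporter mean of their sets, 9.59 and 10.18.

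All 12 glycolytic genes lay above 0 in the Atxn1l knockout, 5 of them with an unadjusted p under 0.05, all higher, where 4.54% of all probe sets were higher at that p. Enolase 1, which makes phosphoenolpyruvate, had levels of 11.53, 11.34, 11.39 and 11.27 in knockouts and 11.16, 11.08, 11.17 and 11.18 in wild types. All knockouts lay above all wild types, by 1.18-fold, a change of 0.23 (SE 0.060, adjusted p = 0.339). The probe set of its near-identical copy Eno1b had means of 4.05 in knockouts and 4.09 in wild types, far below the array medians. At so low a level its change of -0.039 says little about Eno1. The signal of probes shared by such copies cannot be assigned with certainty. Ldha, the lactate dehydrogenase subunit that turns pyruvate into lactate, read 12.43, 12.31, 12.40 and 12.33 against 12.23, 12.19, 12.24 and 12.21. Here too the groups did not overlap, at 1.11-fold, a change of 0.15 (SE 0.046, adjusted p = 0.420). Both kept a change of at least 0.13 without any single array.

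The hexokinases, which trap glucose in the cell, followed at the entry of the pathway. Hk2, the inducible form, had 8.17, 7.92, 7.98 and 7.81 in knockouts and 7.50, 7.88, 7.78 and 7.73 in wild types, a change of 0.25 (SE 0.094, adjusted p = 0.515). Wild type replicate 2 lay above knockout replicate 4, and knockout replicate 1 was highest. Hk1, the housekeeping form, had 9.35, 9.38, 9.45 and 9.42 against 9.36, 9.08, 9.19 and 9.30, a change of 0.17 (SE 0.064, adjusted p = 0.527), and wild type replicate 1 overlapped with the knockouts. Aldoa, the aldolase that splits fructose bisphosphate, read 11.50, 11.35, 11.33 and 11.16 against 11.23, 11.09, 11.16 and 11.10. Its change was 0.19 (SE 0.071, adjusted p = 0.521), and knockout replicate 4 lay below the highest wild type. Gpi1, the isomerase after hexokinase, had 0.12 and Tpi1, the triose phosphate isomerase, 0.12. Pgk1, the X-linked phosphoglycerate kinase, had 9.02, 8.98, 8.99 and 8.89 against 8.80, 8.92, 8.90 and 8.98 and a change of 0.070 (SE 0.054, adjusted p = 0.784). Smallest were the controllers of the committed step: the phosphofructokinases Pfkp (0.057) and Pfkl (0.045) and the fructose-2,6-bisphosphate regulators Pfkfb4 (0.021) and Pfkfb3 (0.012), each with groups that overlapped.

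**Figure D3:**
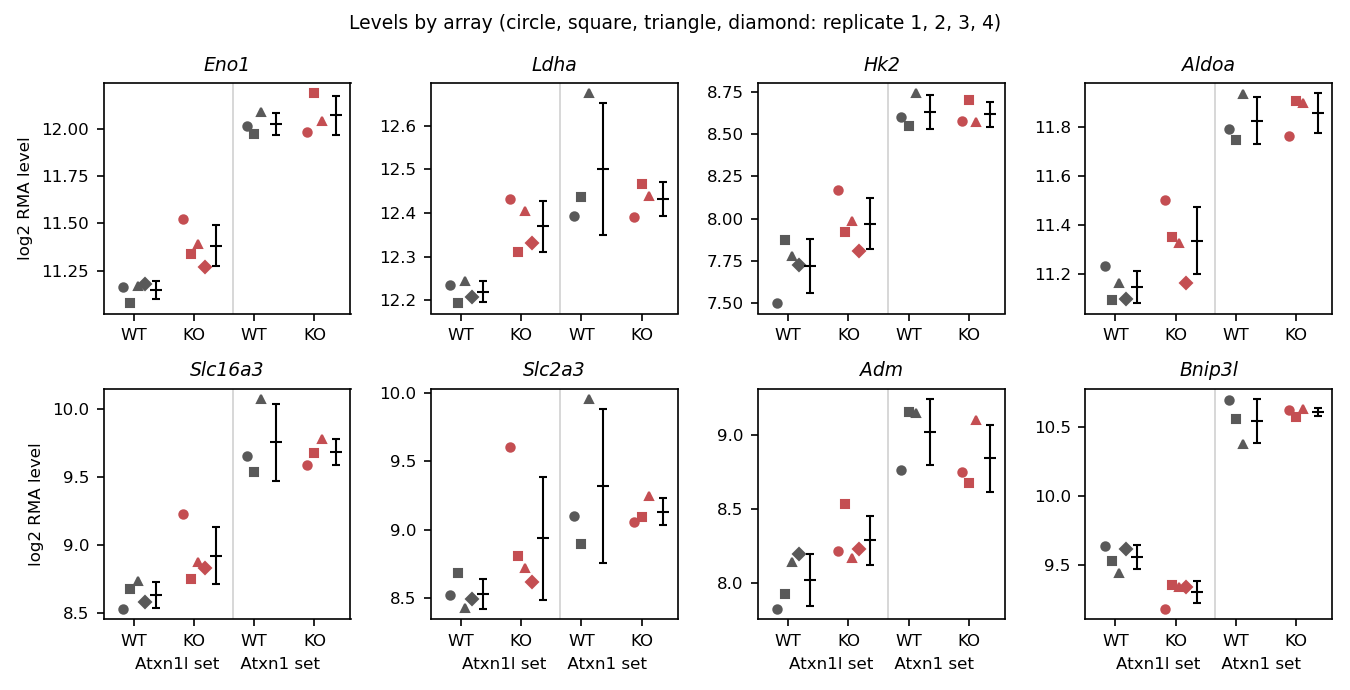
Log2 RMA level of 8 members on each array, grey for wild types and red for knockouts, with the mean and SD of each group beside the points (4 arrays a group for Atxn1l, 3 for Atxn1). In the Atxn1l set all knockouts lie above the wild types for Eno1, Ldha and Slc16a3 and below for Bnip3l, and replicate 1 (circle) is the highest knockout for Slc2a3 at 9.60.

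Means of the 12 glycolytic genes were 10.18, 10.07, 10.11 and 10.02 in the Atxn1l knockouts and 9.98, 9.97, 9.97 and 9.99 in their wild types. Every knockout mean was above every wild type mean, with replicate 1 highest and replicate 4 close to the wild types. Knockout replicate 1 was the highest of the 8 arrays for 9 of 12 glycolytic genes and for 14 of 31 members, where it was highest for 20.2% of all probe sets. Without it 11 of 12 lay above 0, 3 had an unadjusted p under 0.05, and the median was 0.065 in place of 0.12. Changes then were 0.19 for Eno1, 0.18 for Hk2, 0.13 for Aldoa, 0.072 for Gpi1 and 0.053 for Tpi1. Without wild type replicate 2 also 3 glycolytic genes had an unadjusted p under 0.05, with a median of 0.12. Of 10 macrophage genes all lay above 0, and Chil3 and Msr1 passed the test. Without knockout replicate 1 all 10 again lay above 0, with a median of 0.44 in place of 0.62. The macrophage mean was 9.80, 9.16, 9.21 and 9.27 in knockouts against 8.76, 8.78, 8.68 and 8.67 in wild types. Neutrophil means were 10.68, 9.26, 9.05 and 8.87 against 8.74, 8.99, 8.30 and 8.20. The part of these cells in the glycolytic values was not tested. Of 8 heart and skeletal muscle genes, which a dissection could carry along, 5 lay above 0 and none had an unadjusted p under 0.05. Their mean varied between arrays, at 7.84, 7.96, 8.14 and 8.13 in knockouts against 8.12, 7.54, 8.34 and 7.87 in wild types. The part of muscle in the glycolytic values was not tested.

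**Figure D4:**
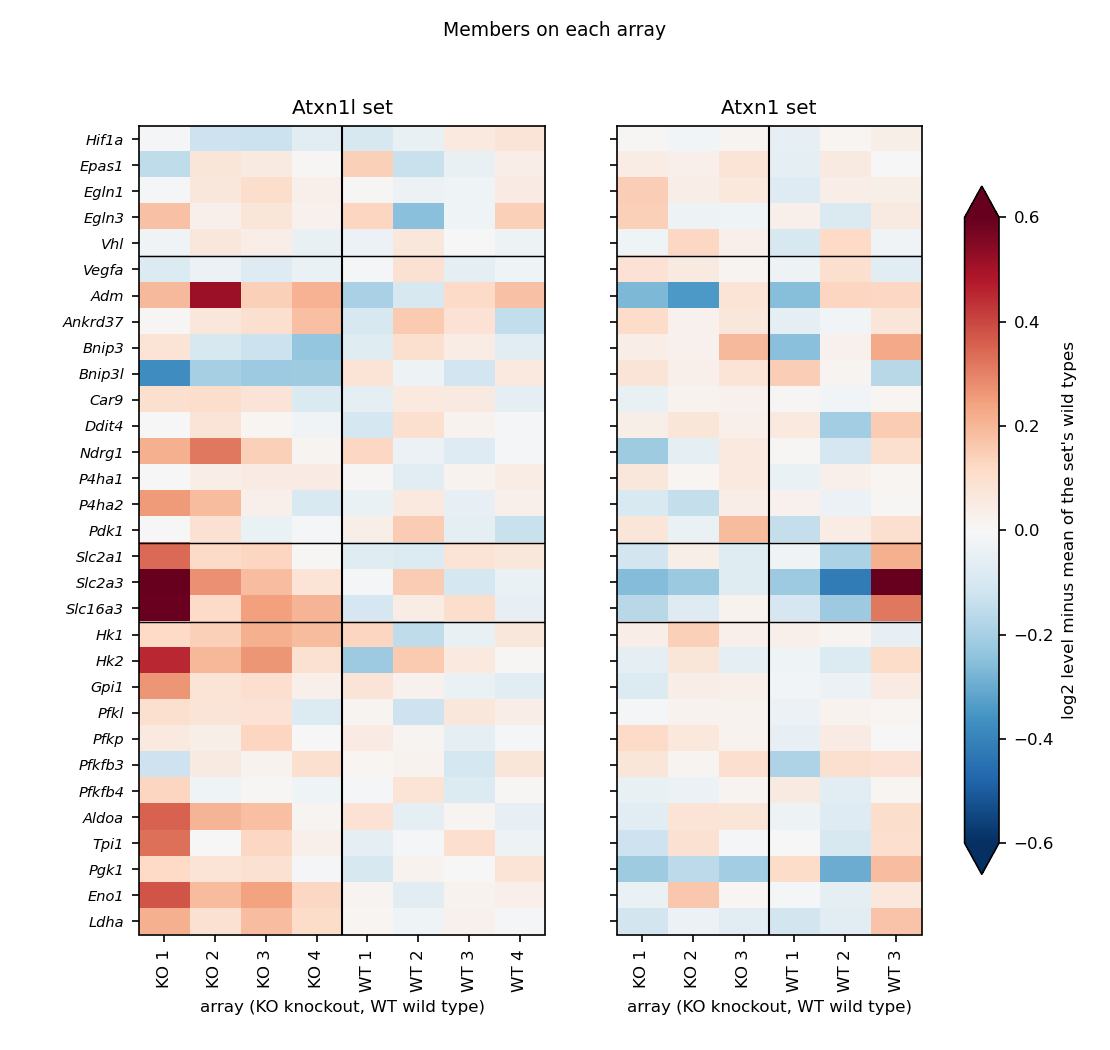
Log2 level of each member on each array minus the mean of the wild types of its set, with red above and blue below 0, knockouts left of the vertical line and wild types right of it, and horizontal lines between the roles. Differences beyond 0.6 share the darkest colour. Knockout replicate 1 of the Atxn1l set and wild type replicate 3 of the Atxn1 set show the strongest red among the transporters, at 9.60 and 9.95 for Slc2a3.

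In the Atxn1 knockout 0 of 31 members passed the test, as did 0% of all probe sets, and none had an unadjusted p under 0.05, where 1.22% of probe sets had. Glycolytic genes had a median of 0.0037. The smallest p belonged to Pgk1, at 10.14, 10.20 and 10.15 in knockouts and 10.47, 10.06 and 10.54 in wild types. Its knockouts lay close together and its wild types on both sides of them, and the change of -0.19 (SE 0.12, adjusted p = 0.9999) was -0.34 without wild type replicate 2 and -0.099 without wild type replicate 3. Hk1 had 9.97, 10.08 and 9.96 against 9.96, 9.95 and 9.89, a change of 0.071 (SE 0.055, adjusted p = 0.9999). Pfkp, the platelet-type phosphofructokinase, had 9.67, 9.62 and 9.58 against 9.51, 9.60 and 9.56, a change of 0.066 (SE 0.053, adjusted p = 0.9999), and its groups overlapped by 1 wild type. Adm read 8.75, 8.68 and 9.10 against 8.77, 9.16 and 9.15, low on knockout replicates 1 and 2 and on wild type replicate 1, with a change of -0.18 (SE 0.15, adjusted p = 0.9999). Ldha had 12.39, 12.47 and 12.44 against 12.39, 12.44 and 12.67. Its highest array was wild type replicate 3, and its change of -0.069 (SE 0.081, adjusted p = 0.9999) was 0.018 without it. Vegfa stood at 12.94, 12.91 and 12.87 against 12.82, 12.95 and 12.79, a change of 0.053 (SE 0.060, adjusted p = 0.9999), and Slc2a1 at 10.20, 10.35 and 10.24 against 10.29, 10.12 and 10.52, at -0.049 (SE 0.10, adjusted p = 0.9999). The groups of Hk1, Adm, Ldha, Vegfa and Slc2a1 all overlapped.

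Wild type replicate 3 of the Atxn1 set was the highest of its 6 arrays for 13 of 31 members, where it was highest for 12% of all probe sets. Without it 25 of 31 members lay above 0 and 10 of 12 glycolytic genes, with a median over the members of 0.047 in place of 0.028. No member had an unadjusted p under 0.05 then. Over all probe sets, wild type replicate 1 was the highest array for 41.0% and the lowest for 23.2%. Among the 31 members it was highest for 2 and lowest for 11. Without wild type replicate 1 or 2 of that set, 15 of 31 lay above 0, and 1 member had an unadjusted p under 0.05. It was Adm (-0.31) and Pgk1 (-0.34) in that order, where 4.41% and 4.29% of all probe sets had such a p. With arrays weighted by their own spread, 9 of 31 lay above 0 and 9 had an unadjusted p under 0.05, as had 19.5% of all probe sets, with Pgk1 at -0.35, Slc2a3 at -0.72 and Bnip3l at 0.21. The smallest adjusted p of a member was 0.138 there. The median SD over members was 0.084 in Atxn1l knockouts, 0.082 in their wild types, 0.065 in Atxn1 knockouts and 0.096 in their wild types, where that over all probe sets was 0.085, 0.089, 0.056 and 0.10. The widest member was Slc2a3, with an SD of 0.45 in Atxn1l knockouts and 0.56 in Atxn1 wild types.

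The difference between both knockouts was tested as the contrast of their effects over all 14 arrays. No member passed, where 0.00943% of all probe sets did, and 3 members had an unadjusted p under 0.05 against 3.24% of probe sets. Bnip3l differed by -0.32 (SE 0.10, adjusted p = 0.9996), Ldha by 0.22 (SE 0.087, adjusted p = 0.9996) and Adm by 0.44 (SE 0.19, adjusted p = 0.9996), each as the Atxn1l change minus the Atxn1 change. For Eno1 the difference was 0.19 (SE 0.092, adjusted p = 0.9996) and for Slc16a3 0.36 (SE 0.18, adjusted p = 0.9996). Without Atxn1 wild type replicate 3 the differences were 0.13 for Ldha, 0.20 for Slc16a3, 0.38 for Adm and -0.23 for Bnip3l. Without Atxn1l knockout replicate 1 they were 0.20 for Ldha, 0.26 for Slc16a3 and 0.14 for Eno1. Members with an unadjusted p under 0.05 numbered 2 without Atxn1 wild type replicate 3 and 1 without Atxn1 knockout replicate 1. They numbered 8 without Atxn1l knockout replicate 4 and 10 without Atxn1 wild type replicate 2. The shares of all probe sets at that p were not computed for these runs, so the counts have no background beside them. These values do not show that the knockouts differ in any member.

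Other genes of the pathways added no called gene in either knockout. The shares of all probe sets at an unadjusted p under 0.05, against which the counts for Atxn1l stand, were 4.54% higher and 3.95% lower. Among 15 further HIF subunits and regulators 7 lay above 0 in the Atxn1l knockout, and 2 had an unadjusted p under 0.05, both lower: Cited2, which competes with HIF for its coactivators (-0.16), and the ubiquitin ligase Siah1a (-0.13). Of 30 further HIF targets 14 lay above 0, with 4 higher and 1 lower at that p. The haem-degrading Hmox1 had 10.12, 9.46, 9.46 and 9.47 in knockouts and 9.33, 9.16, 9.23 and 9.27 in wild types, a change of 0.38 (SE 0.14, adjusted p = 0.507), without overlap and highest on replicate 1, and 0.22 without that array. The collagen prolyl hydroxylase P4ha3 had 0.20. The 21 further glycolytic genes, among them muscle, liver and brain forms, had 11 above 0 with a median of 0.026. Pkm, pyruvate kinase of most tissues (0.11, without overlap), and Hk3, the leukocyte hexokinase (0.17), had an unadjusted p under 0.05, and Adpgk (0.18) did not. Without knockout replicate 1 the further HIF targets with such a p were 2, both higher, and neither Pkm (0.099) nor Hk3 (0.11) had one. Of the further glycolytic genes 1 then had one, and it was lower. In that run 7.94% of all probe sets had such a p in either direction.

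Among 21 genes of pyruvate entry, gluconeogenesis and the pentose phosphate path 4 lay higher at an unadjusted p under 0.05 in the Atxn1l knockout, and 4 did without knockout replicate 1. The pentose phosphate enzyme Tkt had 9.35, 9.29, 9.31 and 9.27 against 9.20, 9.19, 9.13 and 9.13, a change of 0.14 (SE 0.044, adjusted p = 0.420). Its groups did not overlap, nor did those of Pgd of the same path, with a change of 0.22 (SE 0.069). The pyruvate carboxylase Pcx had 0.21. The tricarboxylic acid cycle had 12 of 16 genes above 0 with a median of 0.019, led by malate dehydrogenase Mdh2 (0.10), Ogdh (0.10) and citrate synthase Cs (0.10), none with an unadjusted p under 0.05. Without knockout replicate 1, 10 of 16 lay above 0 and 1 was lower at that p, where 7.94% of all probe sets had one in either direction. In the Atxn1 knockout Bpgm was the 1 gene of these lists with an unadjusted p under 0.05, at 10.63, 10.64 and 10.67 against 10.42, 10.58 and 10.29, a change of 0.22 (SE 0.079, adjusted p = 0.9999) without overlap. Without wild type replicate 3 it was 0.15, with an unadjusted p of 0.080. Next to it in p were Plod1 (0.094), Angptl4 (-0.14), Eno2 (-0.13), Pdk3 (0.093), Mdh1 (-0.082) and Siah2 (-0.068).

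Entrez gene numbers are 15251 for Hif1a, 13819 for Epas1, 112405 for Egln1, 22339 for Vegfa, 11535 for Adm, 12177 for Bnip3l, 17988 for Ndrg1, 20525 for Slc2a1, 20527 for Slc2a3, 80879 for Slc16a3, 15275 for Hk1, 15277 for Hk2, 56421 for Pfkp, 11674 for Aldoa, 18655 for Pgk1, 13806 for Eno1 and 16828 for Ldha.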

How the data were processed

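RNA of 14 lung samples (100 ng each) was hybridised to 1 array per sample. The deposited values are log2 levels per probe set, which the authors made with RMA, per the submitters' processing notes, separately for each set, per the series text. The notes also name limma. For the probe set definitions, the version is not given in the labels or files used here. Depth has no meaning for arrays, and their number limits the precision. Groups follow the sample titles; the series text names Atxn1-/- for both sets. Probe sets carry Entrez numbers: 18786 of 21212 had 1 symbol in the platform table, 6 several and 2420 none, and Gpi1 and Eno1 were named through the RefSeq gene number.

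Each knockout was fitted against its own wild types with limma 3.58.1 in R 4.3.3 (lmFit, eBayes), with Benjamini-Hochberg adjustment over all probe sets and a threshold of 0.05. The difference between knockouts was a contrast in 1 fit of 4 group means. Members and lists were chosen with earlier results of these data known. Values per array are given for members with an unadjusted p under 0.05 (or the 5 of smallest p), for those without overlap in the Atxn1l set, and for Hif1a, Epas1, Vegfa, Slc2a1, Pgk1 and Ldha. From each other pathway list up to 3 genes of smallest p are given. Some genes of the lists are not reported here. Eno1b, Slc2a3 in full, and Gpi1 and Tpi1 without replicate 1 were added after their values were seen.

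Tested on simulated data of 21212 genes for the Atxn1l comparison, the fit recovered 22 of 72 genes changed by 0.25, 47 of 59 changed by 0.5 and 68 of 69 changed by 1 (log2). For the Atxn1 comparison it recovered 5 of 70, 35 of 62 and 64 of 68. Noise was drawn independently for each gene, so shifts that many genes share on an array were absent. Recovery in the real data may therefore be lower. Alternatives were a replicate block, a robust eBayes with intensity trend, array weights, leaving out the 25% dimmest probe sets, quantile normalization over all arrays, median centring, cyclic loess, the Xist level as a covariate, and leaving out each array. For the cell type and other pathway lists, leaving out the array that stands apart in each set was added after seeing the data.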

Additional observations from a re-analysis of the deposited data

Results flagged for a closer look

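In groups of 4 arrays, a highest or lowest array counted as far from the others where its gap to the nearest, divided by the range, passed Dixon's 95% critical value. Chance gives this in about 1 in 20 groups, and it was met in 6 of 78, 4 of them among 62 groups of members. Bnip3l was low on Atxn1l knockout replicate 1, at 9.18 with the next at 9.34. On knockout replicate 4, Car9 was low at 6.94 with the next at 7.11, and Pfkl was low at 9.30 with the next at 9.46. Eno1 was low on wild type replicate 2 of the Atxn1l set, at 11.08 with the next at 11.16. The mean of the 3 transporters was high on Atxn1l knockout replicate 1, at 9.59 with the next at 9.11. The mean of the red cell genes was high on the same array, at 8.55 with the next at 8.41.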

How the results depend on the processing

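No member passed the test under any alternative run, in either knockout or in their difference. In the Atxn1l comparison the probe sets called were 9, and 2 with a replicate block. Members with an unadjusted p under 0.05 were 11 with the block, where 10.2% of all probe sets had one. The series text speaks of pairs of mice, and no label ties the numbers to them. Same-numbered arrays correlated in their deviations at 0.088, 0.037, 0.23 and 0.38 in the Atxn1l set and at 0.0030, -0.42 and 0.42 in the Atxn1 set. Arrays of different numbers correlated at -0.24 to 0.25 in the Atxn1l set and at -0.37 to 0.37 in the Atxn1 set. All same-numbered values of the Atxn1l set lay above 0, and those of the Atxn1 set did not. These values do not decide whether the numbers stand for pairs. The numbers were not taken as pairs in the main fit, and the block is given as an alternative. Without single arrays, probe sets called ranged from 2 to 25, members with an unadjusted p under 0.05 from 5 to 12, and the median member change from 0.053 to 0.092. That median was 0.054 with quantile normalization over all arrays and 0.046 with median centring. Epas1 was 0.022 with array weights, 0.0096 with cyclic loess, and between -0.049 and 0.044 without single arrays.

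In the Atxn1 comparison array weights called 1 probe set. They gave 9 members an unadjusted p under 0.05, where 19.5% of all probe sets had one. Without single arrays there were 0 to 1 such members, where 0.721% to 4.41% of all probe sets had such a p. Hif1a was -0.028 with array weights, -0.013 with quantile normalization over all arrays, -0.011 with cyclic loess, -0.0057 with the Xist level as a covariate, and between -0.023 and 0.018 without single arrays. Without single arrays Ldha ranged from -0.12 to 0.018 and Slc2a1 from -0.15 to 0.057. In the difference of the knockouts, members with an unadjusted p under 0.05 were 3, and 5 with the replicate block, 5 with the robust eBayes and 13 with array weights. The share of all probe sets at that p was 3.24% in the main fit and was not computed for the alternatives. The cause of these shifts was not tested. The 3 or 4 arrays a group limit the size of change that can be called.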
